A study of Mus musculus with 37 samples.

Results

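Open chromatin was described in 6 ATAC-seq libraries of germinal vesicle (GV) oocytes, the fully grown oocytes of the ovary before meiosis resumes. They were chosen from the 37 samples of the series because they are the ATAC-seq libraries of the Cabin1 line, 3 from CabZ Het and 3 from CabZ KO oocytes, named A, B and C within each genotype. All were from C57BL/6 mice carrying a floxed Cabin1 allele and a Zp3-Cre transgene, whose Zp3 promoter drives Cre recombinase in growing oocytes. In CabZ Het oocytes 1 floxed allele loses exon 6 and in CabZ KO oocytes both do. The controls therefore also carry Cre and a deleted allele, and neither genotype was compared with oocytes lacking Cre. Each library was made from pooled oocytes. The labels do not say whether the pools came from separate animals, so p-values measure the spread between libraries, which may be technical.

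Cabin1 is a subunit of the Hira complex, a histone chaperone that deposits the histone variant H3.3 outside DNA replication. ATAC-seq uses the Tn5 transposase, which inserts adapters where DNA is accessible, so that regulatory elements appear as peaks of reads. The peak lists ask whether the number, shape and placement of accessible regions differed between oocytes with and without an intact Cabin1 allele.

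The sequences on which the regional results rest are shown first, from GRCm38 and on the plus strand. The interval chr10:75751376-75751675 is shown because exon 6 of Cabin1, the exon removed by Cre, lies in it. Its 181 exonic bases are in capitals, and the gene itself runs on the minus strand.
Cabin1 exon 6: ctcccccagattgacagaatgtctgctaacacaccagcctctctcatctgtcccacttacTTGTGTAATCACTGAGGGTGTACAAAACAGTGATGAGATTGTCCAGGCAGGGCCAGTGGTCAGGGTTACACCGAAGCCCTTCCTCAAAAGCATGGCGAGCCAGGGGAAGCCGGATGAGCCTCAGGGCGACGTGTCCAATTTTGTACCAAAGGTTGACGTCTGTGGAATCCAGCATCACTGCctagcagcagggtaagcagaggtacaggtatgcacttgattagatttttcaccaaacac

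A stretch of 234 bases from the highest summit of a repeat region on chromosome 2, chr2:98666852-98667085, is shown because that region differed between the genotypes. Capitals mark the 188 bases that equal the base 234 positions before them.
Chromosome 2 repeat: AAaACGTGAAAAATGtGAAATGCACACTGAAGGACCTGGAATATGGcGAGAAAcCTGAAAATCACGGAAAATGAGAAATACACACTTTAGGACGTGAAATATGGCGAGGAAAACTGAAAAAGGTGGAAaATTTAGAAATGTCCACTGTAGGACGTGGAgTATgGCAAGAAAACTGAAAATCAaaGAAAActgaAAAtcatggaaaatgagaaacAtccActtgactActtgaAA

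The left edge of the peak upstream of Zp3, chr5:135973551-135973750, is shown because this peak had an abrupt border in nearly every list. Capitals mark the 100 bases inside the peak.
Left edge of the Zp3 peak: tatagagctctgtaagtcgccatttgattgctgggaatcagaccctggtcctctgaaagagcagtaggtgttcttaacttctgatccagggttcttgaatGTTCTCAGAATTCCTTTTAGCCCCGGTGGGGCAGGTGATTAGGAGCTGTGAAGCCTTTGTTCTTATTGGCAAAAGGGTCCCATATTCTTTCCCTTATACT

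For regions found in only 1 genotype, 200 bases around the summit of an intronic example of each kind are shown. These are chr4:147349043-147349242 in Gm26624, with an NFY motif (CCAAT) in capitals, and chr15:99792553-99792752 in Lima1, in which none of the 14 motifs searched was found.
CabZ Het, Gm26624: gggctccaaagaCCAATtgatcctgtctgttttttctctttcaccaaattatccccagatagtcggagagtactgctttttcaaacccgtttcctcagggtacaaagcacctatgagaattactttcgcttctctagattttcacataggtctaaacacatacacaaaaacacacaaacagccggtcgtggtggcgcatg
CabZ KO, Lima1: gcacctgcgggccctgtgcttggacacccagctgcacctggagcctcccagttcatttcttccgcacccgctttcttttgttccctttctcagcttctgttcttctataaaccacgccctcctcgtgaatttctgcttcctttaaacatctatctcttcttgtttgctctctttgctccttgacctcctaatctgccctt

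The targeted gene was examined first. In the RNA-seq libraries of the same line, FPKM per gene span, a unit worked out from the values of the RNA table, of Cabin1 was 0.0891 to 0.159 in the 4 CabZ Het samples and 0.0125 to 0.0482 in the 4 CabZ KO samples, and the genotypes did not overlap. In the peak lists, exon 6 (chr10:75751436-75751616) lay inside a peak in every CabZ KO list and in no CabZ Het list. The peak spanned chr10:75751158-75751853 in KO A, chr10:75751217-75751914 in KO B and chr10:75751310-75751723 in KO C. Its fold enrichment was 4.68, 5.85 and 4.43, with 9, 12 and 8 reads at the summit. All 3 peaks covered the whole exon, although it is the exon that both alleles of a CabZ KO oocyte should lack. A neighbouring region at chr10:75751938-75753745 held a peak in Het A, Het B, Het C and KO A, with fold enrichment of 3.94, 3.64, 4.69 and 5.62. At the start of Cabin1, chr10:75763375-75764900, peaks were listed in Het A, Het C and KO A only. A peak list gives intervals and not the alignments within them, so it does not check the deletion, and the cause of the peak over exon 6 was not tested.

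The CabZ KO lists were shorter on average, but the genotypes overlapped. The lists held 43399, 67074 and 111327 peaks in Het A, B and C, and 46070, 19160 and 29600 peaks in KO A, B and C. The mean was 73933 ± 34480 (SD, n = 3) in CabZ Het and 31610 ± 13567 (SD, n = 3) in CabZ KO oocytes (two-sided exact permutation test, p = 0.2). With 3 libraries against 3 this test cannot give a p under 0.1. KO A held more peaks than Het A. With fold enrichment of at least 5, the lists held 4573, 7933 and 8892 peaks in CabZ Het and 12992, 3076 and 4074 in CabZ KO, with means of 7133 and 6714 (difference -418.7, exact permutation p = 0.9). Called peaks covered 32.5, 66.8 and 114 Mb in CabZ Het and 42.9, 12.8 and 18.7 Mb in CabZ KO lists (exact permutation p = 0.2).

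Depth moved with genotype. The background that the peak caller used, recovered from the lists, came to 1.54, 1.75 and 2.41 reads at each position for Het A, B and C, and to 1.14, 1.22 and 1.03 for KO A, B and C. The genotypes did not overlap (exact permutation p = 0.1), and a difference in depth cannot be told apart from genotype in these libraries. The following comparisons therefore used the same number of peaks from each list, the 19160 with the highest −log10 q-value. They are called top peaks here and are the whole of the KO B list. Equal number was not equal stringency. The lowest −log10 q-value kept was 2.29, 3.38 and 4.47 in Het A, B and C, and 3.39, 1.65 and 1.92 in KO A, B and C. The part of the list kept ran from 17.2% in Het C to 100% in KO B. The part of this difference in stringency in the values below was not tested.

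Top peaks were narrower on average in CabZ KO libraries, again with overlap. Their median width was 761, 1138 and 1418 bp in Het A, B and C, and 1010, 553 and 600 bp in KO A, B and C (exact permutation p = 0.2). The difference between the means was -384.7 bp, and -135.7 bp over the complete lists. The widths followed the shortest peak of each list only in part, since the median was 1.97, 2.44 and 3.39 times the shortest peak in CabZ Het and 2.36, 1.67 and 2.02 times in CabZ KO lists. Top peaks over 3000 bp numbered 111, 723 and 1845 in CabZ Het and 416, 24 and 41 in CabZ KO libraries. In the complete lists the numbers were 111, 830 and 2445 against 437, 24 and 41.

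Fold enrichment at the summit of top peaks overlapped between the genotypes. This value is the summit read number plus 1 over the background plus 1. Its median over top peaks was 4.33, 4.73 and 4.98 in CabZ Het and 5.15, 4.50 and 4.43 in CabZ KO libraries (exact permutation p = 1.0). Over the complete lists the means of the medians were 3.82 in CabZ Het and 4.38 in CabZ KO, and every CabZ KO list was higher (exact permutation p = 0.1). The lowest fold enrichment in a complete list was at most 3.15 in CabZ Het (Het A) and at least 3.28 in CabZ KO (KO A). Every CabZ KO list was thus cut at a higher value, and the medians of complete lists cannot tell enrichment apart from this cut. Without the added 1, which weighs more in shallow libraries, the median summit was 6.49, 6.86 and 6.64 times the background in CabZ Het and 8.81, 7.36 and 7.75 times in CabZ KO libraries. On that scale every CabZ KO library was above every CabZ Het library (exact permutation p = 0.1), but with the last tied level left out they overlapped (difference 1.52, exact permutation p = 0.2). The difference in background noted above moved with this result.

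**Figure D1:**
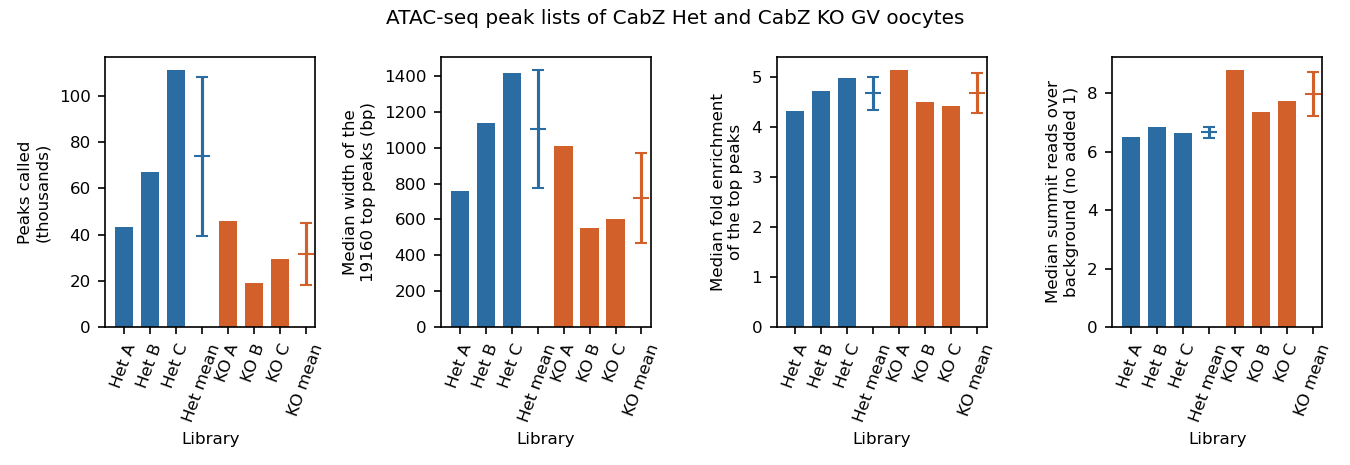
Peaks called, median width, median fold enrichment and median summit reads over background without the added 1, for each library (bars) with the group mean and SD (points with error bars, n = 3). Number, width and fold enrichment overlapped between genotypes, and of these 4 values only the ratio without the added 1 was higher in all 3 CabZ KO libraries.

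Overlap between libraries was partial. Of the top peaks of 1 library, 18.4% to 35.6% overlapped a top peak of another library of the same genotype and 13.7% to 32.8% one of the other genotype. The overlap with the complete lists was larger where these were long, and 74.4% of the top peaks of Het B and 69.96% of those of KO A overlapped a peak of Het C. Merging the top peaks of all libraries gave 71517 regions. Of these, 24635 had a peak in 1 complete list and 1679 had a peak in all 6. Regions in all 6 lists had a median width of 2978 bp against 635 bp for regions in 1 list. A region is the union of overlapping top peaks and counts every list with a peak that touches it. Width and number of lists are therefore linked by how regions were built. Of the regions in all 6 lists 11.5% had their summit within 500 bp of an annotated transcription start, against 5.46% of those in 1 list.

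Oocyte genes checked the cell type. Of 18 genes active in oocytes, 6, 9 and 14 had a peak within 500 bp of a start in the complete lists of Het A, B and C, and 12, 5 and 8 in those of KO A, B and C. Among all 21924 protein-coding genes the share was 12.4%, 23.9% and 40.5% in CabZ Het and 18.3%, 6.3% and 8.62% in CabZ KO lists. Figla, a transcription factor that activates zona pellucida genes, had a start peak in every list, with fold enrichment of 3.94, 6.91, 5.28, 5.62, 5.85 and 4.43. Gdf9, a growth factor secreted by the oocyte, had one in every list but Het A. Nobox, an oocyte homeobox factor, had one in 5 lists and Padi6 in 4. Zp1 and Zp2, which encode zona pellucida proteins, had one in 4 lists each, and so did Dppa3. Zp3 also counted in every list, through the upstream peak given with the highest regions. Kit and Sohlh1 had none in any list. Npm2, Bmp15 and Zar1 had one in 3 lists, Nlrp5 and Ooep in 2, and Lhx8, Mos and Oosp1 in 1.

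Markers of other ovarian cells were counted in the complete lists in the same way. Of 14 granulosa cell genes, 0, 2 and 3 had a start peak in CabZ Het and 1, 0 and 1 in CabZ KO lists. Amh, Amhr2, Fshr, Foxl2, Inha, Hsd17b1, Npr2, Has2, Ptx3, Tnfaip6 and Wt1 had none. Inhba had one in Het B, Het C and KO C, Cyp19a1 in Het C and KO A, and Kitl in Het B and Het C. Of 8 blood cell genes, 1, 0 and 3 had one in CabZ Het and 0, 0 and 1 in CabZ KO lists. The shares of granulosa cell genes were 0.0%, 14.3% and 21.4% against 7.14%, 0.0% and 7.14%, and those of blood cell genes 12.5%, 0.0% and 37.5% against 0.0%, 0.0% and 12.5%. Several were near the shares of all protein-coding genes given above, and the part of other cells was not tested.

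The Hira complex and its histone variant were covered unevenly. Hira itself, the subunit that gives the complex its name, had a start peak in Het C and KO A. H3f3b, which encodes H3.3, had one in Het A, Het B, Het C and KO A, whereas H3f3a had one in Het B alone. Daxx, a chaperone that deposits H3.3 by another route, had one in Het C and KO B. Ubn1, another subunit, had one in KO A. Ubn2, Atrx and Asf1a had none. Cabin1 counted in 5 lists. Het A, Het C and KO A had the peak at its start given above. KO B and KO C counted only through the peak over exon 6, which lies near an annotated start of a short transcript. The number of these 9 genes with a start peak was 2, 2 and 4 in CabZ Het and 4, 2 and 1 in CabZ KO lists.

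Gene families with other roles were also counted, among top peaks. The share of all protein-coding genes with a top peak at the start was 6.81%, 11.1% and 16.2% in CabZ Het and 10.6%, 6.30% and 6.29% in CabZ KO libraries. Of 83 cytosolic ribosomal protein genes, 10, 14 and 22 had a top peak at the start in CabZ Het and 18, 15 and 8 in CabZ KO libraries. Of 1092 olfactory receptor genes, which act in the nasal epithelium, 13, 9 and 7 had one in CabZ Het and 5, 7 and 6 in CabZ KO libraries. Among 326 vomeronasal receptor genes the numbers were 1, 3 and 1 against 3, 1 and 0, and among 39 Hox genes 0, 1 and 0 against none. Histone cluster genes had 2, 7 and 6 of 66 against 5, 0 and 9, and Zfp genes 26, 33 and 40 of 394 against 33, 14 and 15. Of 29 genes of the 2-cell-stage programme, 1, 1 and 2 had one in CabZ Het and 1 in each CabZ KO library. Of 15 housekeeping genes, 3, 3 and 6 had one in CabZ Het and 1, 2 and 1 in CabZ KO libraries.

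Gene starts took 7.28%, 10.1% and 15.2% of the top peaks in Het A, B and C, and 9.89%, 6.58% and 6.54% in KO A, B and C (exact permutation p = 0.2). The means differed by -3.19 percentage points, and by -0.344 over the complete lists (7.23% and 6.89%, exact permutation p = 0.7). Gene bodies beyond the start took 43.6%, 45.9% and 41.5% in CabZ Het and 51.5%, 50.5% and 51.6% in CabZ KO libraries. Every CabZ KO library was higher, with a difference of 7.53 percentage points between the means (exact permutation p = 0.1, the smallest this design allows). Outside genes the share was 49.1%, 44.0% and 43.4% against 38.6%, 43.0% and 41.9%, lower in every CabZ KO library (exact permutation p = 0.1). The median GC content of 200 bases around the summit was 47.0%, 48.5% and 50.0% in CabZ Het and 48.0%, 46.0% and 46.0% in CabZ KO libraries (difference -1.83 percentage points, exact permutation p = 0.2, and -0.50 over the complete lists), against 41.5% in windows spaced evenly over the genome.

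Genes with start peaks had higher median RNA levels than genes without, though not in a steady rise with the number of libraries. Of the protein-coding genes, 15578 had no top peak at a start in any library, and their median RNA level in CabZ Het oocytes was 0.163 FPKM per gene span. The median was 0.499 for the 3028 genes with a start peak in 1 library, 0.574 with one in 2, 0.744 for the 918 genes with one in 3, 0.935 with one in 4, 0.821 with one in 5, and 1.00 for the 86 genes with one in all 6. In CabZ KO oocytes the medians in the same order were 0.183, 0.510, 0.576, 0.713, 0.792, 0.725 and 1.12. These medians cover the genes present in the RNA table, 53.2% of the genes with no start peak and 95.3% of those with one in all 6 libraries.

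Short motifs of 14 transcription factors were searched on both strands in 200 bases around each top summit. The CTCF core, bound by the insulator protein CTCF, was found at 2.55%, 3.87% and 4.43% of top peaks in CabZ Het and 2.89%, 2.20% and 2.36% in CabZ KO libraries, against 1.12% of genome windows. The SP1/KLF motif (GGGCGG) was found at 4.26%, 6.34% and 9.97% against 5.58%, 3.50% and 3.41%, with 2.07% of genome windows. The genotypes overlapped for both. They did not overlap for 4 motifs, of which 2 (14.3% of those searched) were higher and 2 (14.3%) lower in CabZ KO libraries. OTX/OBOX (GGATTA) was at 7.99%, 7.88% and 7.25% against 8.45%, 9.14% and 9.30%, and homeobox TAATTA at 5.52%, 5.56% and 5.07% against 5.94%, 6.41% and 6.59%. NFY (CCAAT) was at 27.5%, 26.9% and 27.2% against 26.6%, 26.5% and 26.6%, and CRE (TGACGTCA) at 0.246%, 0.193% and 0.361% against 0.172%, 0.157% and 0.146%. Genome windows held OTX/OBOX at 7.91%, TAATTA at 7.03%, NFY at 29.0% and CRE at 0.125%. NFY and TAATTA were thus less frequent at top peaks than in genome windows in every library, and CRE more frequent. Each of the 4 had an exact permutation p of 0.1 and a Benjamini-Hochberg adjusted p of 0.28 over the 14 motifs. Away from gene starts NFY overlapped between the genotypes, at 27.3%, 26.4% and 26.0% against 26.2%, 26.4% and 26.5%, while the other 3 motifs still did not overlap. There CRE was at 0.180%, 0.122% and 0.185% against 0.104%, 0.106% and 0.117%. In Het B and every CabZ KO library it was thus below the genome windows.

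The placement of top peaks differed by chromosome. Chromosome 9 took 4.52%, 3.71% and 3.72% of the top peaks in Het A, B and C, and 7.81%, 6.84% and 6.25% in KO A, B and C, with 4.73% of the genome length. All CabZ KO libraries were above, and all CabZ Het libraries below, its share of the length. Chromosome 17 was also higher in every CabZ KO library, with 1.56%, 1.50% and 2.49% against 2.54%, 2.59% and 3.37%. Chromosome 8 was lower, with 9.64%, 6.09% and 5.78% against 5.19%, 4.88% and 5.05%. In all, 2 of 20 chromosomes (10.0%) were higher and 1 (5.0%) lower without overlap. Each had an exact permutation p of 0.1 and an adjusted p of 0.667 over 20 chromosomes, so none passed the threshold of 0.05. The differences on all 3 chromosomes kept their sign in the complete lists and among the top 5000 peaks. In the complete lists only chromosome 9 of the 3 remained without overlap.

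Other chromosomes varied between libraries of 1 genotype. Chromosome X took 2.74%, 4.05% and 1.79% of top peaks in CabZ Het and 3.67%, 6.86% and 3.65% in CabZ KO libraries (exact permutation p = 0.3), with 6.49% of the length. Chromosome 1 took 16.6%, 14.3% and 11.1% against 12.0%, 13.3% and 9.26%, with 7.42% of the length. Chromosome 5 took 11.3%, 13.7% and 10.2% against 6.23%, 10.7% and 7.58%, with 5.76% of the length. Chromosomes 1 and 5 thus held more top peaks than their length gives in every library. Among genes over 1 FPKM, the median log2 RNA ratio of CabZ KO to CabZ Het was -0.03 on chromosome 9, -0.05 on chromosome 8 and -0.05 on chromosome 17, within the -0.08 to 0.06 seen over all chromosomes.

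**Figure D2:**
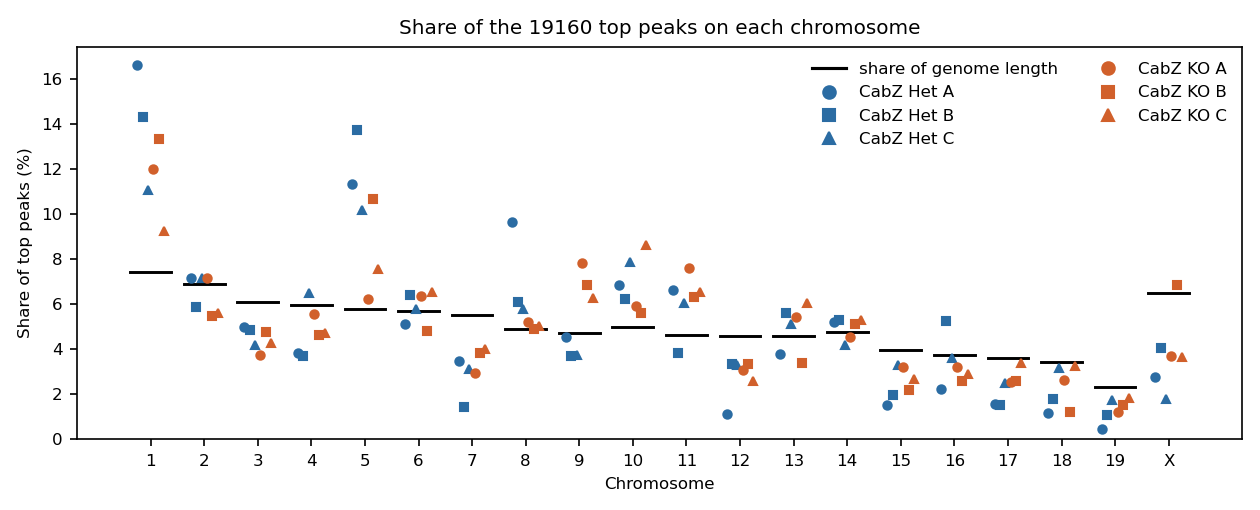
Share of the 19160 top peaks of each library on each chromosome (points) with the share of genome length of that chromosome (black lines). The 3 CabZ KO libraries stood at 6.25% to 7.81% on chromosome 9 and the 3 CabZ Het libraries at 3.71% to 4.52%.

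Bins of 5 Mb showed how evenly these differences ran along a chromosome. They were cut over the full chromosome length, unsequenced bases included. Of 538 bins, 513 had a mean of at least 5 top peaks and were tested with limma on log2(top peaks + 1). None passed an adjusted p of 0.05 in either direction (0.0% each), the smallest adjusted p was 0.0661, and 68 bins had an unadjusted p under 0.05. On simulated data this fit called 22.0% of bins changed 2-fold, so changes of that size can be missed. Without overlap between genotypes, 53 bins (10.3%) were higher and 36 (7.02%) lower in CabZ KO libraries. On chromosome 9 the difference was positive in 24 of 24 bins, 16 of them without overlap, with a median of 0.76. Chromosome 17 had 16 of 18 positive bins, 7 without overlap, and a median of 0.88. Chromosome 8 had 1 positive bin of 26 and a median of -0.54, and chromosome 5 had 2 of 31 and a median of -0.61. Over all 513 bins the difference was positive in 298, with a median of 0.114. One-sided bins were not particular to these chromosomes. Chromosomes 7, X and 19 had 26 of 28, 28 of 32 and 12 of 13 positive bins, with medians of 0.57, 0.65 and 0.56.

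**Figure D3:**
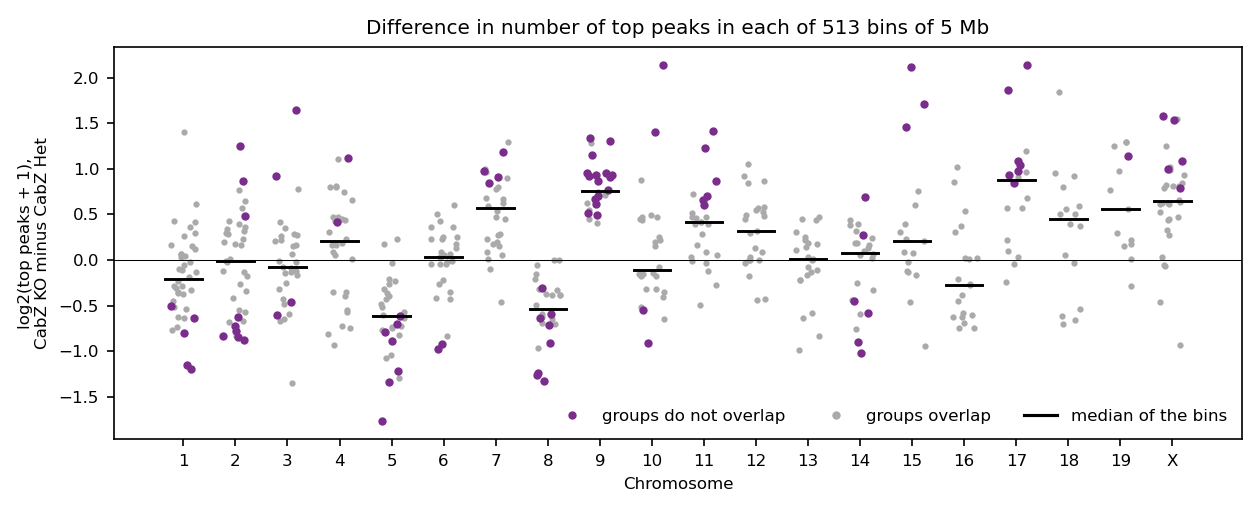
Difference between CabZ KO and CabZ Het libraries in log2(top peaks + 1) for each of 513 bins of 5 Mb, by chromosome, with the median (black lines). Bins whose libraries did not overlap between genotypes are purple, and 16 of the 24 bins of chromosome 9 are of this kind and positive.

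The bin with the smallest p was chr10:1-5000000, with 5, 3 and 6 top peaks in CabZ Het and 19, 19 and 35 in CabZ KO libraries (log2 difference 2.14 ± 0.42 SE, limma adjusted p = 0.0661). Others lay on chromosomes 17 and 15. The bin chr17:85000001-90000000 held 5, 10 and 14 top peaks against 38, 33 and 35, and chr17:70000001-75000000 held 3, 14 and 23 against 48, 46 and 52. The bin chr15:5000001-10000000 held 2, 3 and 11 against 22, 18 and 26, and chr15:30000001-35000000 held 4, 12 and 6 against 23, 21 and 29. In the other direction, chr5:80000001-85000000 held 28, 39 and 18 top peaks in CabZ Het and 4, 15 and 6 in CabZ KO libraries. The bin chr5:95000001-100000000 held 120, 150 and 86 against 42, 58 and 38. The bins chr8:75000001-80000000 and chr8:80000001-85000000 held 22, 15 and 14 against 6, 9 and 4, and 47, 39 and 41 against 23, 12 and 18. The bin chr1:165000001-170000000 held 89, 71 and 77 against 45, 34 and 25. These 10 bins had no overlap between genotypes, and none passed the adjusted threshold.

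Top peaks crowded towards the distal end of the chromosomes in all libraries. Segments of 10% were cut over the full chromosome length, unsequenced bases included, and no peak can lie in such bases. The part of unsequenced bases in the low share of the first segment was not tested. The last 10% of chromosome length, away from the centromere, held 19.5%, 21.4% and 18.9% of top peaks in CabZ Het and 18.2%, 17.4% and 17.1% in CabZ KO libraries. The first 10% held 4.32%, 3.50% and 3.94% against 5.28%, 5.10% and 5.86%. The slope was thus shallower in CabZ KO libraries, without overlap at either end. Of 10 such segments, 4 (40.0%) were higher and 1 (10.0%) lower in CabZ KO libraries without overlap, each with an exact permutation p of 0.1 and an adjusted p of 0.2. Neighbouring top peaks were a median of 36008, 41685 and 43813 bp apart in CabZ Het and 40330, 39804 and 40800 bp apart in CabZ KO libraries (exact permutation p = 1.0).

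**Figure D4:**
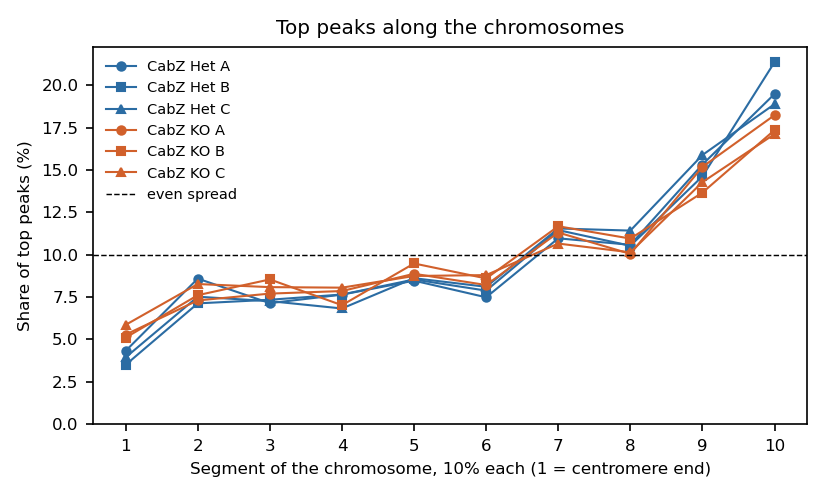
Share of top peaks of each library in 10 equal segments of the chromosomes, from the centromere end to the distal end. The dashed line is an even spread over the full length, unsequenced bases included. All libraries rose from between 3.50% and 5.86% in the first segment to between 17.1% and 21.4% in the last.

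The most enriched region in every library was chr1:24611528-24614232 at the start of Gm10222, with fold enrichment of 1021, 983 and 767 in CabZ Het and 1051, 1203 and 1343 in CabZ KO libraries. Over 99.7% of its length it matched the mitochondrial genome, with 99.9% identity, and reads of the 2 origins cannot be told apart in the lists. The difference did not pass the test (log2 difference 0.34, limma adjusted p = 0.641).

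Second by the mean over the 6 libraries was a region upstream of Zp3, the zona pellucida gene whose promoter also drives Cre in these mice. Fold enrichment was 256, 231 and 438 in CabZ Het and 305, 216 and 282 in CabZ KO libraries (log2 difference -0.20, limma adjusted p = 0.887). The peak began at position 135973651 in 3 lists, at 135973647 and 135973652 in another 2, and at 135973031 in KO B. It ended at 135980097 in Het A and KO C, just before the first base of Zp3 at 135980099. In the other lists it ended inside the gene, at 135980343 in Het B, 135980524 in Het C, 135982836 in KO A and 135980549 in KO B. Its summit lay 2907 to 3002 bases before the gene. The transgene carries a copy of the Zp3 promoter, and reads from it and from the endogenous promoter cannot be told apart. A peak over Mt1, a metallothionein gene, also ranked between 6 and 12 in every list, with fold enrichment of 75.6, 37.8 and 98.8 in CabZ Het and 55.7, 49.5 and 57.6 in CabZ KO libraries. The summit was inside the gene, 697 to 928 bases beyond its start. Whether its reads came from the endogenous gene or from another copy of its sequence was not tested, and the sequence of the transgene was not used here.

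Of the 1679 regions with a peak in all 6 lists, limma called 2 (0.119%) as higher and 2 (0.119%) as lower in the CabZ KO libraries, at an adjusted p of 0.05. Without overlap, 138 (8.22%) were higher and 66 (3.93%) lower. A tested region needed a peak in every list. The lowest fold enrichment, given above, was higher in each CabZ KO list than in any CabZ Het list. Regions with low CabZ KO values could thus not be tested, and the part of this in these counts was not tested. An intronic region of Sfi1, a centrosome gene, at chr11:3171639-3173170 rose most, from 11.0, 10.9 and 9.68 to 28.6, 22.5 and 26.6 (log2 difference 1.26 ± 0.20 SE, limma adjusted p = 4.6e-05). Repeats cover 67.0% of the Sfi1 region, so the limit given below for reads of repeats applies to it too. The region chr2:98666238-98667331, at the start of Gm10800, rose from 162, 116 and 117 to 261, 256 and 291 (log2 difference 1.01 ± 0.21 SE, limma adjusted p = 0.0041). Regions that fell were chr4:146496862-146498623 in an intron of Gm26573, from 8.66, 10.2 and 8.80 to 6.09, 4.05 and 4.43 (log2 difference -0.98, limma adjusted p = 0.0041), and chr9:104477142-104482291, 1496 bases from the start of Gm25904, from 8.27, 6.18 and 8.50 to 4.21, 4.05 and 4.43 (log2 difference -0.88, limma adjusted p = 0.022). The fall on chromosome 9 was opposite to the gain in peak number there. Without centring of the libraries it was not called (adjusted p = 0.122).

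The chromosome 2 region belongs to a repeat that recurs in other regions, which were compared after their values were seen. Repeats cover 81.6% of it. The lag of 234 bases was taken from the chromosome 9 region given next, in which 77.6% of bases equal the base 234 positions before, and the mouse major satellite of pericentromeric heterochromatin has units of this length. In the chromosome 2 region the share was 54.2%, below the 59.6% at its best lag of 485 bases. No satellite sequence was compared with these regions. The 2 most enriched regions found in CabZ KO oocytes alone matched it. The first, chr9:3000005-3001005 in Gm26870, was 87.9% identical over 782 bases, and its fold enrichment was 8.43, 6.30 and 9.35 in KO A, B and C. The second, chr14:19417544-19418312 in Gm21738, was 90.6% identical over 721 bases, with 6.09, 6.30 and 11.8. Its identity at the lag of 234 bases was 35.1%, so that it was matched by similarity alone. No CabZ Het list had a peak in either. A neighbouring region at chr2:98662234-98662979 by Gm10801, 88.2% identical over 451 bases and with 30.7% identity at that lag, had 117, 105 and 120 in CabZ Het and 138, 174 and 176 in CabZ KO libraries, but did not pass the test (log2 difference 0.47, limma adjusted p = 0.547). Copies of a repeat share reads, and since only unique alignments were kept these values cover part of each repeat.

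Other highly enriched regions showed no called difference. The region chr17:39842992-39848842, which holds the 18S rRNA sequence Rn18s-rs5, had 111, 307 and 340 in CabZ Het and 160, 142 and 87.6 in CabZ KO libraries (limma adjusted p = 0.0697). An intronic region of Filip1l, chr16:57391120-57391819, had 28.0, 81.1 and 84.2 against 36.5, 41.4 and 26.1. An intronic region of Drg1, chr11:3183826-3200551, had 31.5, 42.5 and 59.5 against 60.4, 52.7 and 49.2. Among the 10 highest were also 2 stretches of an unplaced scaffold, with values of 24.8 to 82.0.

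**Figure D5:**
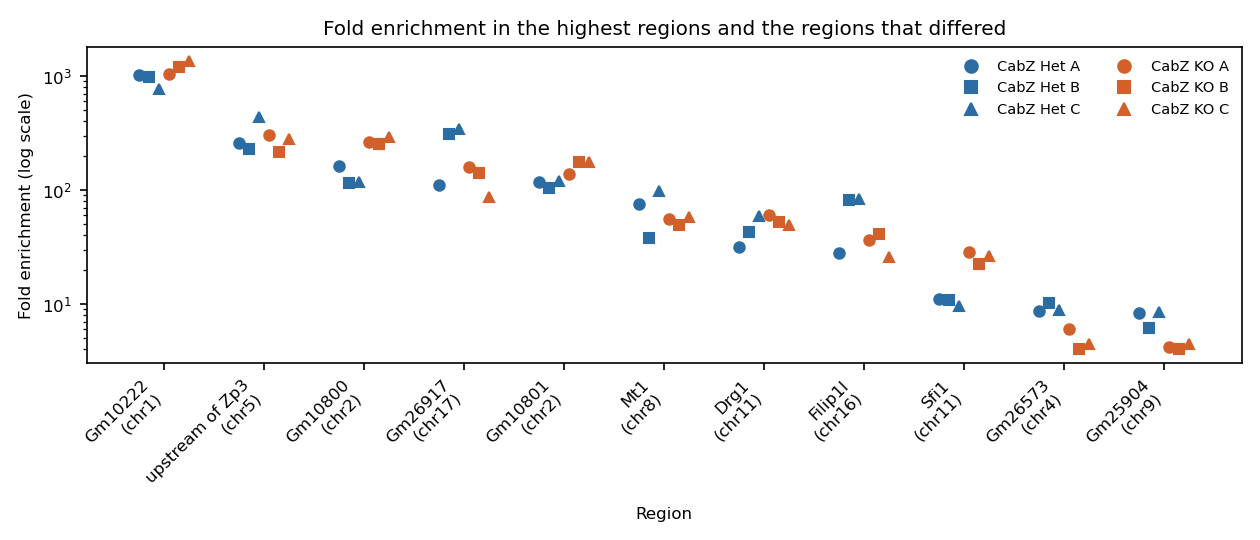
Fold enrichment on a log scale in each library for the most enriched regions on chromosomes and for the regions that differed, named by gene. The regions of Gm10800 and Sfi1 were higher in all 3 CabZ KO libraries, and those of Gm26573 and Gm25904 lower.

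Regions with a top peak in all 3 libraries of 1 genotype and no peak in any list of the other were more frequent for CabZ Het (370 of 71517 regions, 0.517%) than for CabZ KO oocytes (83, 0.116%). The CabZ Het lists were also longer on average, so a region is more easily missing from a CabZ KO list, and the part of depth was not tested. Of the 83 CabZ KO regions, 26 (31.3%) lay on chromosome 9, which held 5.47% of all regions. Of the 370 CabZ Het regions, 25.1% lay on chromosome 5 and 19.5% on chromosome 1, which held 8.92% and 11.7% of all regions. Of the CabZ Het regions 15.4% had their summit at a gene start and 37.0% in a gene body. Of the CabZ KO regions 9.64% were at a start and 61.4% in a gene body. Among all merged regions with a peak in 3 lists, 9.82% were at a start, near the CabZ KO share. The share of those regions in gene bodies is not given here.

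The CabZ Het regions with the highest mean were those of Mphosph9, Gm26624, Mier2, Gm38122, Ugt2a3, C330018A13Rik, Ptges, Gm18407, Gm27552 and Sco2. The region at the Mphosph9 start, chr5:124327259-124328828, led with 5.51, 6.55 and 10.8. At gene starts, 57 such regions were found. Besides Mphosph9, a centriole gene, and Sco2, which serves the assembly of cytochrome c oxidase, the 10 highest were at Pts, an enzyme of tetrahydrobiopterin synthesis, Cry1, a repressor of the circadian clock, Tmem43, Traf3ip1, Dnajb1, an Hsp70 co-chaperone, Golt1b, Pigu, which serves the attachment of GPI anchors, and Tpr, a nuclear pore protein. Values at Cry1 were 4.72, 5.09 and 8.21, and at Dnajb1 5.51, 5.82 and 5.86.

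After the repeat regions of chromosomes 9 and 14, the CabZ KO regions with the highest mean were those of Lima1, Glce, Gm5764, Fam117a, Adk, Ska1, Anpep and Gfra1. The Lima1 intron, an actin-binding protein gene, had 6.09, 6.30 and 4.92, and the Glce intron, of a heparan sulphate epimerase, had 6.09, 5.40 and 5.41. At gene starts, 8 CabZ KO regions were found. They lay at Rbm15b, a subunit of the m6A RNA methylation complex, Gm8855, Cabin1, Gm48871, Dpp8, a dipeptidyl peptidase, Fbxw23, Gm26911 and Gm49759. Values at Rbm15b were 6.56, 4.95 and 4.43, and at Dpp8 4.68, 4.50 and 5.41. Rbm15b, Dpp8, Fbxw23 and Gm49759 are on chromosome 9.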

How the data were processed

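The authors aligned reads to the mouse genome (mm10) with Bowtie2 2.3, removed duplicates, mitochondrial reads and alignments that were not unique, and ran MACS2 on every library separately, with its local background switched off. The deposited lists give the fold enrichment at the summit (a ratio), −log10 of the p-value and q-value, and a score, which is 10 times the −log10 q-value. The authors' RNA table holds a score, reads divided by gene span and scaled, with 0.01 added, from which FPKM per gene span was restored. This unit was worked out from the values and is not given in the sources used here. Read totals were not used here. The background was solved from columns of fold enrichment and p-value, and every summit then held a whole number of reads.

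The 19160 peaks with the highest q-value rank were taken per library, with ties at the last level in a seeded random order. Genes came from GENCODE M21 and sequence from GRCm38. Library values were tested with exact permutation of the genotypes (two-sided). Bins and merged regions were compared with limma 3.58.1 (R 4.3.3), regions on log2 fold enrichment centred per library, with Benjamini-Hochberg adjustment at 0.05. The fits were first tested on simulated data. Of bins changed 2-fold 22.0% were called and of those changed 4-fold 97.0%, with 4 and 2 false calls. Of regions the shares were 85.5% and 100%, with 12 and 8 false calls. Regions were matched to each other and to the mitochondrial genome with BLAST 2.17.0. Genes and regions were named as called regions without overlap, the 10 with the highest mean of each 1-genotype set and of all, those at gene starts, 5 bins per direction, and all members of the marker lists. The libraries, gene lists and rules were chosen with earlier results of these data known. The alternatives were other numbers of peaks, thresholds, bin sizes, pseudocounts and overlaps, a replicate block and leaving out each library. The handling of ties, the gene body and intergenic shares and the ratio without the added 1 were added after seeing the data.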

Additional observations from a re-analysis of the deposited data

How the results depend on the processing

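Differences are CabZ KO minus CabZ Het. The median fold enrichment was 0.01215 higher in CabZ KO libraries and turned lower among the top 5000 peaks (-0.06472), and it ranged from -0.217 to 0.164 when each library was left out. Without Het A it was -0.163 and without KO A -0.217. The median distance between top peaks, -190.5 bp, turned positive among the top 5000 peaks (15620), in the complete lists (15270), without overlap in both, and with the last tied level left out (3071), and ranged from -2438 to 1465 bp with single libraries left out. It was 401.1 bp without Het B, 1465 bp without Het C and 63.17 bp without KO B. No 5 Mb bin was called, against 5 of 1344 bins of 1 Mb, 1 of 328 among the top 5000 peaks, 1 with the last tied level left out and 0 to 5 with single libraries left out (5 without Het C). Against 4 of 1679 regions called, 8 of 1338 were called from the top 5000 peaks, 7 of 9739 with a peak in at least 2 libraries of each genotype, and 1 to 9 with single libraries left out (8 without Het A, 9 without KO A, 2 without KO B and 1 without KO C). The Sfi1 region, of which repeats cover 67.0%, passed under every alternative in which it was tested. That of Gm10800 was lost without Het B, KO B or KO C (adjusted p 0.102 to 0.165), that of Gm26573 without KO B or KO C (0.114 and 0.0849), and that of Gm25904 without centring (0.122), with the block (0.0791) and without Het A, Het C, KO B or KO C (0.0582 to 0.128). Other ranges with single libraries left out were -57590 to -23630 peaks, -65.64 to -24.84 Mb covered, -557 to -228.5 bp of width, 0.7991 to 2.46 percentage points on chromosome X, -4.983 to -1.027 at gene starts, 6.438 to 8.653 in gene bodies, -5.411 to -2.519 outside genes, -2.583 to -1.083 of GC content and 0.8927 to 1.615 for the ratio without the added 1. The causes of these changes were not tested.

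With a replicate block on the letters, 12 bins (11 higher, 1 lower) and 3 regions were called. Over bins, deviations of same-letter libraries correlated at -0.0721, 0.19 and 0.244 for A, B and C. Those of different letters correlated at -0.319 to 0.151, so B and C were above all of these and A was not. Over regions the same-letter values were -0.062, 0.0121 and -0.0171, against -0.0589 to 0.0692. The labels do not say whether letters pair libraries, so the main fits used no block. These correlations do not settle whether the libraries are paired, and the number of bins called depends on it. For the single values the smallest p the block can give is 0.25, so it does not bear on their calls. A region absent from a list had no called peak in that library, and the part of depth in such absences was not tested.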
